A study of Homo sapiens with 18 samples.

Results

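The genes described here make ribosomes: subunits and factors of RNA polymerase I and the nucleolar proteins that cut, modify and assemble ribosomal RNA. A list of 53 such genes was looked up by symbol, and 48 of them, among 18417 measured genes, had a probe set that named 1 gene. NOP56, PPAN, GNL3, DDX18 and EBNA1BP2 were not analysed here. The members fall into 5 roles: RNA polymerase I transcription (6 genes), the small subunit processome and small subunit maturation (18), proteins of small nucleolar ribonucleoprotein particles, or snoRNPs (6), large subunit maturation (12), and nucleolar organising proteins (6).

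The cells were Raji, a B-cell line grown out of a human Burkitt lymphoma, whose cells harbour Epstein-Barr virus. The labels give every group an induction with 3 mM sodium n-butyrate and phorbol ester at 0.05 µM, and treatment by 19 µM of maslinic acid. The groups differ in harvest time: 0, 4, 8, 12, 24 or 48 h, with 3 arrays each, 18 in all. Butyrate inhibits histone deacetylases, phorbol esters activate protein kinase C, and maslinic acid is a plant triterpene. The 0 h arrays carry all these compounds in their labels, and no arm lacking a compound was analysed here, so the effect of a compound cannot be told apart from time in culture. The arrays are called biological replicates without mention of separate cultures, so p-values measure the spread between these arrays, which may be technical.

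Each value is a log2 intensity on an Affymetrix array, as deposited, and 1 unit is a 2-fold difference. The 18 array medians lay between 4.03 and 4.25. Replicate 2 of 8 h stood apart in its interquartile range, 2.37 against 2.74 to 3.16 on the other 17. Of the B cell markers CD79A, CD79B, MS4A1, CD22 and PAX5, 4 of 5 had a mean above 6. Their list mean was 7.69 to 7.81 on the 0 h arrays and 6.52 to 7.43 at 48 h. The part of that difference in the results below was not tested. The list means of T cell, monocyte, epithelial and fibroblast markers ran from 3.16 to 3.90 over all arrays, under every array's median. In such bulk RNA, fewer cells of a kind and less RNA per cell cannot be told apart, and a nucleolar transcript level is not a rate of ribosome production.

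RNA polymerase I transcribes the ribosomal DNA repeats in the nucleolus. Its long transcript is folded and cut by the small subunit processome, modified at sites chosen by small nucleolar RNAs, and built into the small and large subunits by helicases, GTPases and scaffold proteins. In lymphoma cells these genes are known for following growth signals, and MYC, the transcription factor whose translocation marks Burkitt lymphoma, is known to bind many of them at the E-box, a site with the letters CACGTG.

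E-boxes were common near the starts of these genes. RefSeq windows of GRCh38.p14, reaching from 250 bases before to 50 after an annotated start, were held for 40 of the 48 members. CACGTG, which reads the same on both strands, stood in a window of 19 of these 40 (47.5%), against 1557 of 14239 measured genes with a window (10.9%). In 17 of the 19 a copy began within 50 bases of a start. The core of sites for ETS-family factors, CCGGAAG, searched on both strands, stood in 18 of 40 members (45%) against 16.8% of the measured genes, and the letters of the motifs do not overlap. A match describes letters and does not show binding.

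The last 100 bases before the start are shown for the members whose E-box lies wholly within them, 5 that were lower at 48 h than at 0 h and NOP10, which was not. Capitals mark the E-box and the last base is the one before the start.
UTP20, chr12:101280005-101280104, + strand: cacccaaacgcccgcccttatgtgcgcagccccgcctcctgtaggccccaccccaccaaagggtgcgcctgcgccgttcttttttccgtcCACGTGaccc
UTP4, chr16:69132549-69132648, + strand: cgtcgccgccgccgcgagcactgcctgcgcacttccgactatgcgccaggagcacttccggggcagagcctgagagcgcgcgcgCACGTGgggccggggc
UTP18, chr17:51260446-51260545, + strand: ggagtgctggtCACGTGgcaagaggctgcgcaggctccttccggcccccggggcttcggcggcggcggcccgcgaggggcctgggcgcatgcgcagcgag
LYAR, chr4:4290022-4290121, - strand: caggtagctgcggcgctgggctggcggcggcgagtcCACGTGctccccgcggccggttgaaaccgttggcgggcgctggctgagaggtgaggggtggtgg
DDX21, chr10:68956547-68956646, + strand: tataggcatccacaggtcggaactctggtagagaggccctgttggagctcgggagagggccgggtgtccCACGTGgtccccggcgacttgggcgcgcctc
NOP10, chr15:34343137-34343236, - strand: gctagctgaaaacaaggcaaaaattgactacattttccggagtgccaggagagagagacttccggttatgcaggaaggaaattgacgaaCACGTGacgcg
Counted from the start, the site shown began at -10 in UTP20, -16 in UTP4, -11 in NOP10, -31 in DDX21, -64 in LYAR and -89 in UTP18. A further E-box began at 5 in UTP18, after the start, and at -170 in NOP10. In MRTO4, PNO1, WDR43, NOP14, NOC3L, FBL and PES1 the E-box lay just after the start.

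More members were lower at each later time, and none was called higher. Limma's moderated test, adjusted by the Benjamini-Hochberg method over all genes and called at an adjusted p under 0.05, found 0, 3, 10, 12 and 18 of the 48 members lower than at 0 h after 4, 8, 12, 24 and 48 h. At 4 h 4 members (8.33%) had an unadjusted p under 0.05, beside 13% of all genes. As shares, these are 0%, 6.25%, 20.8%, 25% and 37.5% of the members, beside 0.586%, 3.18%, 4.14%, 5.74% and 8.11% of all genes called lower at the same times. The count of members called higher was 0 at each time, beside 1.16%, 3.5%, 3.91%, 6.74% and 6.92% of all genes. The 5 comparisons share the 0 h arrays, so they are not independent of each other.

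**Figure D1:**
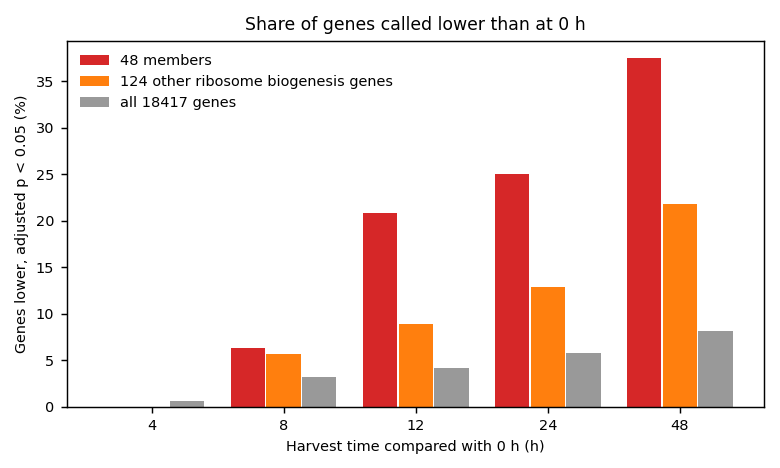
Percent of genes called lower than at 0 h (adjusted p under 0.05) at each later harvest time, for the 48 members, 124 other ribosome biogenesis genes and all 18417 genes. The members' share went from 0% at 4 h to 37.5% at 48 h, and that of all genes from 0.586% to 8.11%.

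The median member differed from 0 h by -0.02, -0.20, -0.29, -0.36 and -0.50 on the log2 scale at 4, 8, 12, 24 and 48 h. The same median over all genes lay between -0.02 and 0.05. At 48 h 44 of 48 members had a mean below that of 0 h, called or not, beside 43.7% of all genes. The member median on the single arrays was -0.80, -0.43 and -0.44 at 48 h, with replicate 1 lowest. At 8 h it was -0.13, -0.50 and 0.01, and the low array was replicate 2, the one with the narrow interquartile range.

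**Figure D2:**
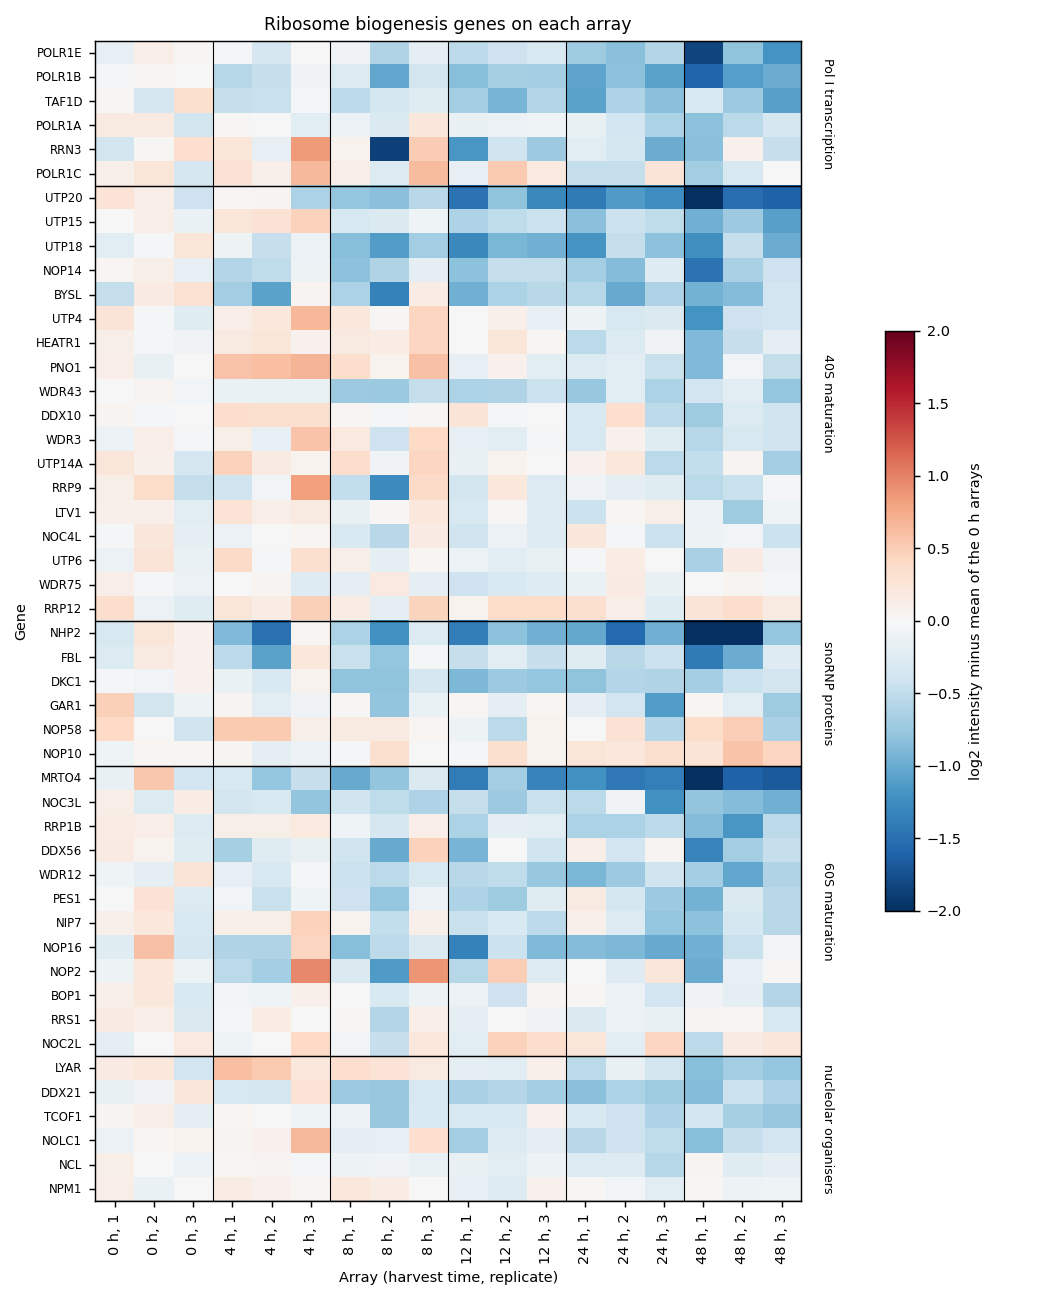
Each row is 1 of the 48 members, grouped by role and ordered by the 48 h difference, and each column 1 array (harvest time in h, replicate). Colour is the log2 intensity minus the mean of the 0 h arrays, from -2 (blue) to 2 (red), with values beyond these in the end colour. UTP20, MRTO4 and NHP2 are the darkest at 48 h, while NPM1 and NCL stay pale on all arrays.

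The moderated F test of any difference from 0 h passed 18 of 48 members (37.5%), beside 16.4% of all genes. PNO1 and NOLC1 passed it with no single time called, and NOP14, NOC3L and TCOF1 were called at 48 h without passing it. The largest of the 5 differences came at 48 h for 27 members, at 24 h for 7, at 12 h for 6, at 8 h for 3 and at 4 h for 5. This timing was not counted over all genes. Their calls, too, were most frequent at 48 h, with 8.11% lower and 6.92% higher. Between neighbouring times limma called 0 members in each of the 4 steps, with 7, 1, 1 and 5 at an unadjusted p under 0.05 (14.6%, 2.08%, 2.08% and 10.4%, beside 8.58%, 6.63%, 11.1% and 9.47% of all genes). After adjustment the same steps called 0.223%, 0%, 1.37% and 0.402% of all genes. With array weights 5 members (10.4%) were lower at 8 h than at 4 h, beside 2.14% of all genes.

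Among the RNA polymerase I genes, 0 of 6 were called at 4 and 8 h, 2 fell by 12 h, and 3 were lower at both 24 and 48 h. As shares the later counts are 33.3%, 50% and 50%, beside 4.14%, 5.74% and 8.11% of all genes called lower. The median of these 6 genes was -0.57 at 12 h and -0.63 at 48 h. POLR1B, the second-largest subunit of the enzyme, read 7.37, 7.42 and 7.39 at 0 h. It read 6.83, 6.94 and 7.33 at 4 h, 7.12, 6.35 and 7.02 at 8 h, and 6.54, 6.73 and 6.71 at 12 h. At 24 h its arrays were at 6.34, 6.57 and 6.33, and at 48 h at 5.80, 6.29 and 6.40. From 4 h on, every POLR1B array lay below all 3 of 0 h. The 12 h call (-0.73, adjusted p = 0.0297) was lost when any 1 array of 0 h or 12 h was left out (adjusted p over the alternatives from 0.00495 to 0.116). The difference was -0.98 (SE 0.20, adjusted p = 0.00296) at 24 h and -1.23 (SE 0.20, adjusted p = 0.000307) at 48 h, 2.34-fold.

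POLR1E, a subunit of the heterodimer that helps the enzyme start and elongate, fell by 24 h. Its 0 h arrays read 8.31, 8.61 and 8.49, its 12 h arrays 7.94, 8.06 and 8.17, its 24 h arrays 7.76, 7.63 and 7.89, and its 48 h arrays 6.63, 7.67 and 7.28. None of these later groups overlapped with 0 h, and replicate 1 of 48 h was the lowest. The 12 h difference of -0.41 was not called (adjusted p = 0.284). The fall was 2.42-fold at 48 h (log2 difference -1.28, SE 0.21, adjusted p = 0.000362). At 24 h it was -0.71 (adjusted p = 0.0335), a call lost without replicate 2 or 3 of 0 h or replicate 1 or 2 of 24 h (adjusted p over 26 alternatives from 0.0063 to 0.125).

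TAF1D, a component of the selectivity factor that brings the polymerase to the ribosomal promoter, was at 8.80 ± 0.33 (SD, n = 3) at 0 h and 7.96 ± 0.22 (SD, n = 3) at 24 h. Its difference was -0.85 at 24 h (SE 0.21, adjusted p = 0.011) and -0.70 at 48 h (adjusted p = 0.0286), where 1 array at 8.50 overlapped with the 0 h values. The 24 h call was lost without replicate 3 of 0 h or replicate 1 of 24 h (adjusted p from 0.00392 to 0.0619). Its 12 h and 48 h calls were each lost under 6 alternatives (adjusted p from 0.0132 to 0.172 and 0.00757 to 0.14). Its gene also carries small nucleolar RNAs in its introns, and 6 further probe sets name it together with other genes and were not used.

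The remaining members of this role were not called. The largest subunit, POLR1A, differed by -0.56 at 48 h, and POLR1C, shared with RNA polymerase III, by -0.34. RRN3, the factor that readies the polymerase for initiation, had the weakest evidence of the 6 (F test adjusted p = 0.501), with 8 h arrays at 7.05, 5.12 and 7.49. The low one is again replicate 2 of 8 h. With the interquartile range as a covariate its 12 h difference was called (-0.76, adjusted p = 0.0331), and over all alternatives the adjusted p ran from 0.0331 to 0.683.

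**Figure D3:**
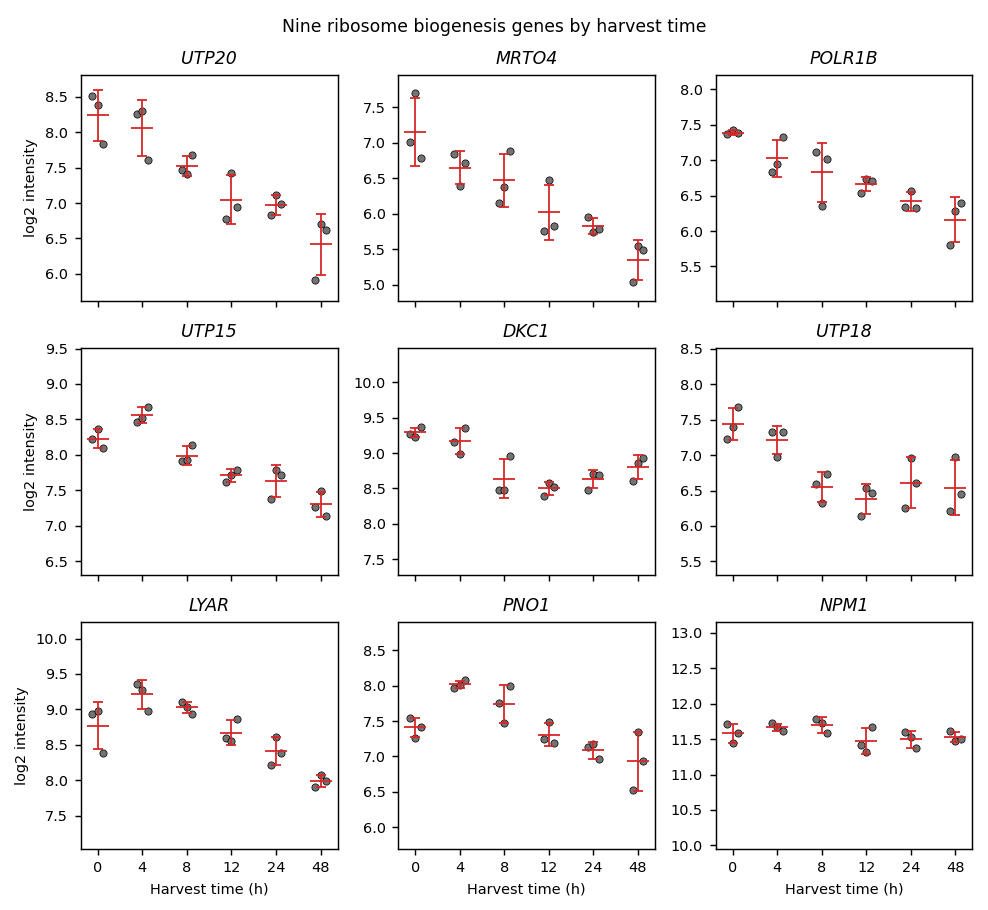
Log2 intensity by harvest time (h, categories not to scale) for 9 members. Points are the 3 arrays, red bars the mean and SD, and every panel spans the same range of log2 units. UTP20, MRTO4 and POLR1B go down through 48 h, DKC1 and UTP18 are lowest at 12 h, LYAR and PNO1 are highest at 4 h, and NPM1 is nearly level.

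Among the 18 small subunit genes, 2, 4, 4 and 6 were lower after 8, 12, 24 and 48 h, and 0 were higher. The lower calls are 11.1%, 22.2%, 22.2% and 33.3%, beside 3.18%, 4.14%, 5.74% and 8.11% of all genes. The median of these 18 genes was 0.18 at 4 h and -0.46 at 48 h. UTP20, a very large scaffold protein of the processome, showed the widest fall of this role. Its arrays read 8.51, 8.38 and 7.83 at 0 h, 8.26, 8.30 and 7.61 at 4 h, and 7.47, 7.41 and 7.68 at 8 h. They read 6.77, 7.43 and 6.95 at 12 h, 6.83, 7.11 and 6.99 at 24 h, and 5.92, 6.71 and 6.62 at 48 h. From 8 h on no array reached the lowest 0 h value. The fall was 2.28-fold at 12 h and 3.53-fold at 48 h (log2 difference -1.82, SE 0.24, adjusted p = 3.99e-05), and the 12, 24 and 48 h calls held under all 26 alternatives run.

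UTP15, of the subcomplex that joins the nascent transcript first and links it to transcription, read 8.22, 8.36 and 8.09 at 0 h and 8.46, 8.52 and 8.68 at 4 h. The 4 h arrays were all above those of 0 h, but the difference of 0.33 was not called (adjusted p = 0.35). It then read 7.61, 7.72 and 7.79 at 12 h and 7.27, 7.49 and 7.13 at 48 h. These lay wholly below the 0 h values, and the 48 h difference was -0.93 (SE 0.15, adjusted p = 0.000248).

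UTP4 and HEATR1, of the same role, were called at 48 h only. UTP4 was at 8.98 ± 0.25 at 0 h, 9.31 ± 0.28 at 4 h and 8.32 ± 0.46 at 48 h (SD, n = 3 each), a difference of -0.67 at 48 h (adjusted p = 0.0384). HEATR1 differed by -0.52 at 48 h (adjusted p = 0.0499), at the edge of the threshold. The HEATR1 call was lost under 16 of 26 alternatives (adjusted p from 0.0139 to 0.257) and that of UTP4 under 5 (0.00866 to 0.225), among them leaving out replicate 1 or 2 of 0 h or replicate 1 of 48 h.

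UTP18 and WDR43, processome proteins with WD repeats, had fallen by 8 h. UTP18 read 7.23, 7.40 and 7.68 at 0 h, 6.59, 6.32 and 6.74 at 8 h, and 6.14, 6.53 and 6.47 at 12 h. At 24 h it read 6.25, 6.96 and 6.61 and at 48 h 6.21, 6.97 and 6.45. Its 4 late groups did not overlap with 0 h. The difference was -0.89 at 8 h (SE 0.22, adjusted p = 0.0171), -1.06 at 12 h (adjusted p = 0.00429) and -0.89 at 48 h (adjusted p = 0.00746). The 8 h call was lost without replicate 3 of 0 h or replicate 2 of 8 h (adjusted p from 0.0106 to 0.0797). WDR43 was at 9.94 ± 0.05 at 0 h and 9.30 ± 0.15 at 8 h (SD, n = 3 each), and differed by -0.65 (adjusted p = 0.0213), -0.56 and -0.54 at 8, 12 and 24 h. At 48 h its difference of -0.47 was not called (adjusted p = 0.0643). The WDR43 calls were lost under 5, 11 and 8 alternatives at 8, 12 and 24 h (adjusted p from 0.00406 to 0.0781, 0.0126 to 0.144 and 0.0128 to 0.176), among them leaving out replicate 1 or 2 of 0 h.

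PNO1, which holds the end of the small subunit RNA until its last cut, had another course. Its arrays read 7.54, 7.26 and 7.42 at 0 h and 7.97, 8.01 and 8.08 at 4 h. They read 7.76, 7.47 and 8.00 at 8 h, 7.24, 7.49 and 7.19 at 12 h, 7.13, 7.18 and 6.96 at 24 h, and 6.52, 7.35 and 6.93 at 48 h. The 4 h arrays all lay above 0 h and the 24 h arrays all below. PNO1 passed the F test (adjusted p = 0.00271), but no single time was called: the 4 h difference was 0.61 (SE 0.19, adjusted p = 0.122) and the 48 h difference -0.47 (adjusted p = 0.106). With quantile normalization or the interquartile range as a covariate the 4 h difference was called (0.62 and 0.59, adjusted p = 0.0383 and 0.0474). Over all its alternatives the adjusted p ran from 0.0383 to 0.373.

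NOP14, a processome factor, was at 7.67 ± 0.14 at 0 h and 6.82 ± 0.56 at 48 h (SD, n = 3 each; difference -0.84, adjusted p = 0.025). That call was lost under 5 of 26 alternatives (adjusted p from 0.00751 to 0.155), among them leaving out replicate 1 or 2 of 0 h or replicate 1 of 48 h. The other 11 genes of the role, DDX10, WDR3, UTP14A, LTV1, BYSL, WDR75, UTP6, RRP12, RRP9 and NOC4L beside PNO1, were not called at any single time, with 48 h differences from -0.73 for BYSL to 0.26 for RRP12. NOC4L had the largest F test p (adjusted p = 0.824), with arrays from 4.17 to 4.94, close to the array medians, where background can hide a change.

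Of the 6 snoRNP genes, 1 was lower at 8, 12 and 24 h, DKC1, and 2 at 48 h, DKC1 and NHP2. These are 16.7% and 33.3%, beside 3.18%, 4.14%, 5.74% and 8.11% of all genes at the same times. DKC1, the pseudouridine synthase of box H/ACA particles, read 9.27, 9.23 and 9.37 at 0 h and 9.15, 8.99 and 9.36 at 4 h. It read 8.48, 8.48 and 8.96 at 8 h, 8.39, 8.57 and 8.52 at 12 h, 8.48, 8.71 and 8.69 at 24 h, and 8.61, 8.86 and 8.93 at 48 h. From 8 h on no DKC1 array reached the 0 h values, and the lowest mean was at 12 h. The differences were -0.65 (SE 0.16, adjusted p = 0.0166), -0.79 (adjusted p = 0.00349), -0.66 (adjusted p = 0.00819) and -0.49 (adjusted p = 0.0437) at 8, 12, 24 and 48 h. The 48 h call was lost under 13 of 26 alternatives (adjusted p from 0.0106 to 0.178), among them leaving out any 1 of the 0 h arrays or replicate 1 or 2 of 48 h. The 8 h call was lost under 4 (adjusted p from 0.00095 to 0.113), among them without replicate 3 of 0 h or replicate 1 or 2 of 8 h.

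NHP2, a partner of DKC1 in the same particles, was lower at 48 h. Its 0 h arrays read 6.48, 7.05 and 6.89, its 24 h arrays 5.79, 5.25 and 5.85, and its 48 h arrays 3.89, 4.57 and 6.04. At 48 h replicate 3 stood well above the other arrays and still below 0 h. The difference was -1.97 (SE 0.43, adjusted p = 0.00372), and the call held under all 26 alternatives. The lowest readings at 48 h are close to the array medians, where background can hide part of a change, so the size is uncertain. A second probe set of NHP2 differed by -1.57 at 48 h.

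NOP10, a very small H/ACA protein that binds DKC1, read 9.98, 10.11 and 10.10 at 0 h and 10.32, 10.63 and 10.50 at 48 h. These groups did not overlap, and the difference of 0.41 (SE 0.14) was not called (adjusted p = 0.064). It was called under quantile normalization, array weights, the interquartile range as a covariate, and without replicate 2 of 8 h. GAR1, of the same particles, differed by -0.29 at 48 h (adjusted p = 0.561).

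Box C/D particles methylate ribosomal RNA at sites chosen by their small nucleolar RNAs, and neither of their measured member proteins was called. FBL, the methyltransferase, read 9.96, 10.40 and 10.32 at 0 h and 8.82, 9.24 and 9.97 at 48 h, a difference of -0.88 with 1 array overlapping (adjusted p = 0.0539). NOP58, a core protein of these particles, differed by 0.07 at 48 h (adjusted p = 0.913), with arrays from 9.65 to 10.79 there.

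**Figure D4:**
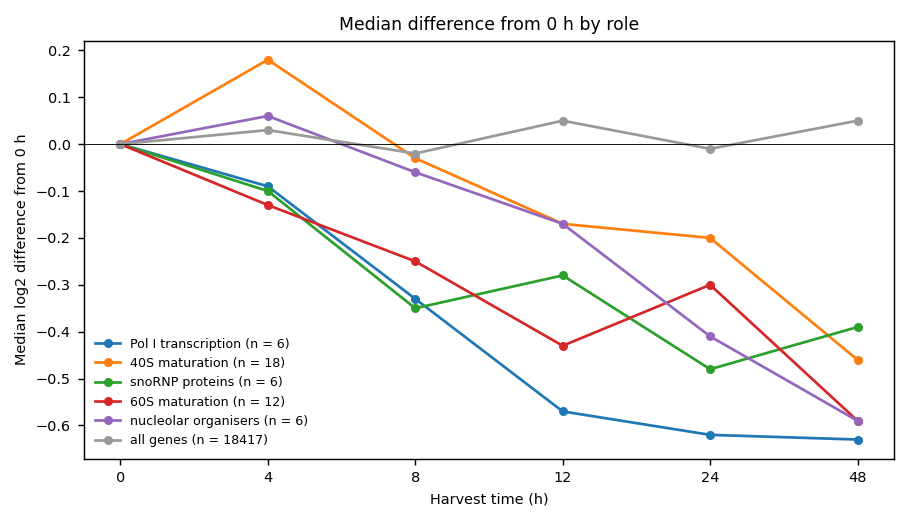
Median log2 difference from 0 h over the genes of each role, by harvest time (h, categories not to scale), with the median of all 18417 genes in grey. At 48 h every role lies between -0.63 and -0.39, and the grey line at 0.05.

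Of the 12 measured large subunit genes, 2 were lower at 12 h, 3 at 24 h and 4 at 48 h, and 0 were higher. The lower shares of 16.7%, 25% and 33.3% stand beside 4.14%, 5.74% and 8.11% of all genes. MRTO4, which holds the place of a ribosomal stalk protein on the immature large subunit, read 7.01, 7.70 and 6.78 at 0 h. It read 6.84, 6.39 and 6.71 at 4 h, 6.15, 6.37 and 6.88 at 8 h, and 5.76, 6.47 and 5.82 at 12 h. At 24 h it read 5.95, 5.74 and 5.79 and at 48 h 5.03, 5.54 and 5.49. The mean went down at every step, and from 12 h on no array overlapped with 0 h. The fall was 2.21-fold at 12 h, 2.52-fold at 24 h and 3.50-fold at 48 h (log2 difference -1.81, SE 0.25, adjusted p = 5.92e-05), and all 3 calls held under the 26 alternatives.

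WDR12, of the trimer with BOP1 and PES1 that is needed to process large subunit RNA, was at 9.89 ± 0.23 at 0 h, 9.45 ± 0.11 at 8 h and 9.11 ± 0.23 at 48 h (SD, n = 3 each). Its differences were -0.61 at 12 h (adjusted p = 0.0325) and -0.78 at 48 h (SE 0.17, adjusted p = 0.00347). Its trimer partners were not called: PES1 differed by -0.60 at 48 h and BOP1 by -0.28. Whether WDR12 differs from its partners was not tested. The 12 h call of WDR12 was lost under 6 alternatives (adjusted p from 0.0106 to 0.151), including each 12 h array left out.

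RRP1B, a nucleolar protein that pairs with a phosphatase, read 7.85, 7.83 and 7.42 at 0 h, 7.07, 7.06 and 7.17 at 24 h, and 6.83, 6.53 and 7.17 at 48 h. The late arrays were all below those of 0 h, and the 48 h difference was -0.85 (SE 0.18, adjusted p = 0.00306). At 24 h it was -0.60 (adjusted p = 0.0389), lost under 8 alternatives (adjusted p from 0.00595 to 0.142), including each 24 h array left out. NOC3L, of a dimer that rides on the maturing large subunit, fell from 8.08 ± 0.24 to 7.21 ± 0.08 at 48 h (SD, n = 3 each; difference -0.87, adjusted p = 0.0117). NOP2, a methyltransferase of large subunit RNA, had the largest F test p (adjusted p = 0.979), and its 4 h arrays spread from 6.86 to 8.51. NIP7, NOP16, DDX56, RRS1 and NOC2L were not called either, with 48 h differences from -0.82 for DDX56 to -0.05 for NOC2L.

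Nucleolar organising proteins gave 1 call at 12 and 24 h, DDX21, and 3 at 48 h. Of the 6 genes that is 16.7%, 16.7% and 50%, beside 4.14%, 5.74% and 8.11% of all genes called lower. LYAR, a zinc finger protein of growing cells, read 8.93, 8.98 and 8.38 at 0 h, 9.36, 9.28 and 8.98 at 4 h, and 9.10, 9.04 and 8.94 at 8 h. It read 8.59, 8.55 and 8.87 at 12 h, 8.22, 8.61 and 8.39 at 24 h, and 7.91, 8.07 and 7.99 at 48 h. Only the 48 h arrays lay wholly below 0 h. The difference was 0.44 at 4 h (adjusted p = 0.258) and -0.78 at 48 h (SE 0.17, adjusted p = 0.00384).

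DDX21, an RNA helicase that couples RNA polymerase I and II transcription, read 10.21, 10.29 and 10.59 at 0 h and 9.64, 9.61 and 10.05 at 8 h. It read 9.71, 9.77 and 9.69 at 12 h, 9.52, 9.73 and 9.66 at 24 h, and 9.50, 9.93 and 9.74 at 48 h. All 12 arrays from 8 h on were below the 0 h values, at much the same level. The differences were -0.60 (adjusted p = 0.0551, not called), -0.64 (adjusted p = 0.0347), -0.73 (adjusted p = 0.0112) and -0.64 (adjusted p = 0.0207). Without replicate 3 of 0 h or replicate 1 of 24 h the 24 h call was lost (adjusted p from 0.00371 to 0.0574). The 12 h and 48 h calls were lost under 6 and 4 alternatives (adjusted p from 0.0102 to 0.144 and 0.00455 to 0.102).

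NOLC1 and TCOF1 are related nucleolar phosphoproteins that bring modification enzymes to the polymerase. NOLC1 was at 9.27 ± 0.10 at 0 h and 8.70 ± 0.25 at 48 h (SD, n = 3 each), and its difference of -0.57 was not called (adjusted p = 0.0591; over its alternatives 0.0167 to 0.241). TCOF1 fell by 0.60 at 48 h (adjusted p = 0.026), a call lost under 5 alternatives (adjusted p from 0.00434 to 0.103), among them leaving out replicate 1 or 2 of 0 h or replicate 2 or 3 of 48 h. The abundant chaperones NCL and NPM1 were not called. NPM1 read 11.71, 11.45 and 11.58 at 0 h and 11.61, 11.48 and 11.50 at 48 h, a difference of -0.05 (SE 0.13, adjusted p = 0.875). NCL differed by -0.36 at 24 h (adjusted p = 0.0845) and -0.13 at 48 h.

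The sizes of the calls at 48 h ran from -0.49 for DKC1 to -1.97 for NHP2. UTP20, MRTO4, NHP2, POLR1E and POLR1B, 5 of the 18, fell at least 2-fold. How many of all genes were called with a fall of that size was not counted. Over all 48 members, called or not, the 3 arrays of 48 h all lay below the 3 of 0 h in 24 (50%), beside 13.2% of all genes. TAF1D was called although its arrays overlapped. Without single arrays, the 48 h count ran from 12 to 21, and the share of all genes lower from 5.95% to 8.82%. When only the arrays of 0 h and 48 h were fitted it was 11 (22.9%), beside 6.42% of all genes.

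At the earlier times single arrays moved the counts. The 3 calls at 8 h, UTP18, WDR43 and DKC1, became 1 when replicate 1 of 8 h was left out and 0 when replicate 2 of 8 h was, beside 2.54% and 1.8% of all genes. The 10 at 12 h became 5, 6 and 5 without replicates 1, 2 and 3 of 0 h and 4 without any 1 of the 12 h arrays. The share of all genes lower was then 2.32% to 3.21%. The 12 at 24 h became 7 when replicate 3 of 0 h was left out and 4 when replicate 1 of 24 h was, beside 4.78% and 4.11% of all genes. With quantile normalization 5 members were called at 12 h, all of them among the 10, beside 4.37% of all genes.

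MYC itself was measured on the same arrays. It read 6.74, 6.58 and 5.88 at 0 h and 5.10, 5.12 and 4.79 at 4 h, where no member was called. It read 4.95, 5.07 and 4.68 at 8 h, 5.03, 4.88 and 5.21 at 12 h, and 5.70, 6.17 and 6.02 at 48 h. Its mean went from 6.40 at 0 h to 5.01 at 4 h and stayed near that level at 8 h (4.90, the lowest) and 12 h (5.04). At 48 h 2 of its arrays overlapped with 0 h. Its difference from 0 h was -0.85 at 24 h (adjusted p = 0.00844) and -0.44 at 48 h (SE 0.20, adjusted p = 0.174). UTP20 and MRTO4 had their lowest means at 48 h. No test compared these courses.

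**Figure D5:**
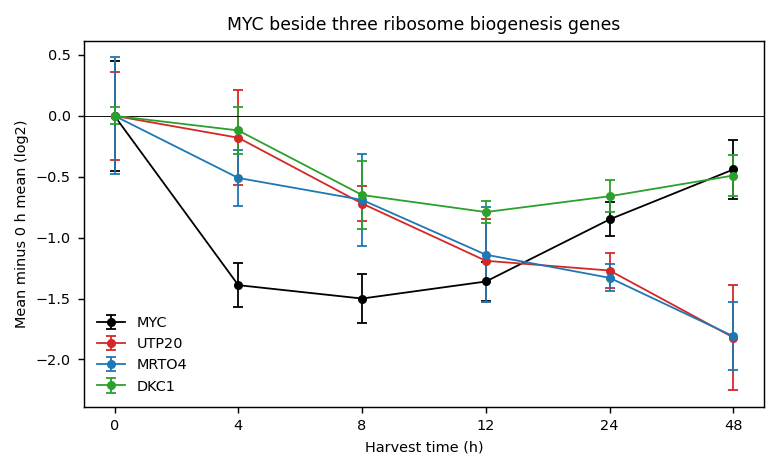
Mean of 3 arrays minus the 0 h mean, on the log2 scale, by harvest time (h, categories not to scale), with the SD of each time as bars. MYC is already low at 4 h, lowest at 8 h (-1.50) and at -0.44 by 48 h. UTP20 and MRTO4 go on to -1.82 and -1.81, and DKC1 is lowest at 12 h.

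The calls can be set beside the E-box. At 48 h 8 of 19 with the motif were called lower, with a median of -0.64, and 7 of 21 without it, with a median of -0.48. At both 12 h and 24 h the counts were 5 of 19 and 5 of 21. For the ETS core the counts at 48 h were 6 of 18 with it and 9 of 22 without it. Of all genes, 4.14%, 5.74% and 8.11% were called lower at 12, 24 and 48 h, and these were not split by motif. The counts describe the members and were not tested.

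A further 124 measured genes of ribosome biogenesis were listed by role, with earlier results of these data known. They were lower in 0, 7, 11, 16 and 27 cases at 4, 8, 12, 24 and 48 h. As shares these are 0%, 5.65%, 8.87%, 12.9% and 21.8%, beside 0.586%, 3.18%, 4.14%, 5.74% and 8.11% of all genes. No test compared the 124 with the 48. Higher calls numbered 1, 2, 2, 2 and 0, and all of them were UTP3 and LSG1. All genes called higher came to 1.16%, 3.5%, 3.91%, 6.74% and 6.92%. The median difference of the 124 at 48 h was -0.32. The F test passed 30 of 124 (24.2%), beside 16.4% of all genes. Counting both directions, the 18 calls at 24 h became 6 when replicate 2 of 0 h was left out, and 10 and 11 when replicates 2 and 3 of 24 h were. The 13 at 12 h became 3 to 8 when any 1 of the 0 h or 12 h arrays was left out, and the 9 at 8 h became 3 to 5 without any 1 of the 0 h arrays or replicate 1 or 2 of 8 h. The single call at 4 h was lost without replicate 2 or 3 of 0 h or replicate 1 or 2 of 4 h, and became 3 without replicate 3 of 4 h or replicate 2 of 8 h. Without replicate 2 of 0 h, 807 of all 18417 genes were lower and 846 higher at 24 h. The 24 h counts were 833 and 856 without replicate 2 of 24 h, and 820 and 1207 without its replicate 3. Each of these is a larger share than that of the 124 in the same fit. Without replicate 2 of 0 h, 550 genes were lower and 427 higher at 12 h, and 385 and 374 at 8 h. Without the arrays named for 24, 12 and 8 h, lower calls alone came to 4.38% to 4.52%, 2.32% to 3.21% and 1.8% to 2.54% of all genes. The F test count became 19 of 124 without replicate 1 of 4 h. That is a smaller share than the 16.4% of all genes in the main fit. The all-gene F test share without that array was not counted.

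The exosome trims the ends of ribosomal RNA, and 5 of its 12 measured genes were lower at 48 h (41.7%, beside 8.11% of all genes). EXOSC2, an RNA-binding cap subunit, read 8.33, 8.17 and 7.19 at 0 h and 5.32, 6.34 and 6.26 at 48 h, a difference of -1.92 (SE 0.35, adjusted p = 0.000835). EXOSC8, a ring subunit, differed by -0.93 at 8 h (adjusted p = 0.0239) and by -1.64 at 24 h (SE 0.24, adjusted p = 0.000151). NOB1, the nuclease that makes the final cut of small subunit RNA, differed by -1.89 at 48 h (SE 0.50, adjusted p = 0.0141). IMP4, which with its partners brings the U3 small nucleolar RNA to the transcript, differed by -1.69 at 48 h (SE 0.41, adjusted p = 0.00827).

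UBTF, the architectural factor that keeps ribosomal DNA open for RNA polymerase I, moved early. It read 8.89, 9.07 and 8.32 at 0 h, 7.37, 6.57 and 7.36 at 8 h, and 7.51, 7.78 and 7.91 at 48 h. The 8 h and 48 h arrays did not reach the 0 h values. Its difference was -1.66 at 8 h (SE 0.24, adjusted p = 0.000354) and -1.02 at 48 h (adjusted p = 0.00618).

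UTP3, a processome factor, rose. It read 8.70, 8.20 and 7.89 at 0 h and 9.40, 9.25 and 8.99 at 4 h, with no overlap, a difference of 0.95 (SE 0.19, adjusted p = 0.0165). It was still higher at 24 h (0.71, adjusted p = 0.0181) and not called at 48 h (0.45, adjusted p = 0.135). LSG1, the GTPase that frees the nuclear export adaptor from the large subunit in the cytoplasm, read 7.46, 7.51 and 7.46 at 0 h and 8.16, 8.39 and 8.62 at 12 h. It rose by 0.92 at 12 h (SE 0.21, adjusted p = 0.0103) and differed by 0.17 at 48 h (adjusted p = 0.695).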

How the data were processed

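The deposited table holds log2 intensities per probe set; base 2 was inferred, since in a larger base the maximum would exceed a 16-bit scanner, and near-equal array medians are the only sign of normalization. Software, background correction and normalization method are not given in the sources used here. Of 33297 probe sets, 19460 named 1 gene in the platform gene table, 1754 several and 12083 none; 19429 matched RefSeq by gene ID. The brightest probe set stood for each gene. No filter was applied. Limma 3.58.1 in R 4.3.3 fitted harvest time to all 18 arrays (12 residual and 5.58 prior degrees of freedom), with Benjamini-Hochberg adjustment over 18417 genes within each comparison; calls needed an adjusted p under 0.05. Scripts were tested on simulated data. Values on the arrays were given for up to 4 members of each role with the smallest F test p among those passing, plus the one with the largest; further members given so were chosen after their values were seen. Of the other pathway genes, the 4 largest falls and rises called at 24 h and 48 h were named. The members and lists were chosen with earlier results of these data known. The number of arrays limits the precision. Alternatives are listed in the closing section. The main fit did not pair the arrays by replicate number.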

Additional observations from a re-analysis of the deposited data

How the results depend on the processing

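Results were recomputed with quantile normalization, with arrays centred on their medians, without the dimmest 25% of genes, with the mean of all probe sets, with the replicate number as a block, array weights, the interquartile range as a covariate, a fit of only the arrays compared, and each of the 18 arrays left out. Centring moved the median of all genes to between -0.10 and -0.01. The 20 members chosen by the F test rule were each checked at the time of their largest difference. There 15 kept their side of the threshold under every alternative, and no direction was reversed. Among the 15, NOC4L, NOP2, NOP58 and NPM1 did so by staying uncalled. Both the genes and the times were picked from these same data, which favours such stability. Some calls of the 20 members at other times were lost, such as DKC1 at 48 h under 13 alternatives, UTP15 at 12 h under 7 and RRP1B at 24 h under 8. The cause of the changes below was not tested. With quantile normalization 1 member was called at 4 h, PNO1, and 5 at 12 h, and 2 other pathway genes at 4 h. Members lower then numbered 10 at 24 h (20.8%, beside 6.09% of all genes) and 13 at 48 h (27.1%, beside 7.8%). With centring the member median was -0.11 at 4 h and -0.42 at 12 h, 2 other pathway genes were called at 4 h and 44 at 48 h. Members lower at 48 h then numbered 27 (56.2%), beside 11.2% of all genes. With array weights 8 members were called at 8 h (16.7%, beside 4.91% of all genes lower) and 5 at 8 h against 4 h, and 4, 16 and 20 other pathway genes at 4, 8 and 12 h; replicate 1 of 8 h then weighed 5.184 and replicate 2 0.246. With the interquartile range as a covariate 1 member was called at 4 h, PNO1, and 5 at 8 h (10.4%, beside 4% of all genes lower), and 3 other pathway genes at 4 h. In the fit of only the arrays compared 1 member was called at 8 h (2.08%, beside 1.42% of all genes lower) and 11 at 48 h, and 0 and 3 other pathway genes at 4 and 8 h. Leaving out single arrays, the members called ranged from 0 to 4 at 8 h, 4 to 10 at 12 h, 4 to 13 at 24 h, 12 to 21 at 48 h and 14 to 19 by the F test, and the 4 h median from -0.09 to 0.03. Other pathway genes ranged from 0 to 3 at 4 h, 3 to 11 at 8 h, 3 to 17 at 12 h, 6 to 21 at 24 h, 19 to 31 at 48 h and 19 to 35 by the F test.

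Arrays of the same replicate number correlated in their deviations from the group means with r from -0.243 to 0.60 (median 0.078) over 45 pairs. For arrays of different numbers r ran from -0.418 to 0.438 (median -0.059) over 90 pairs. Whether the numbers pair the samples was not tested. With the replicate block the members called numbered 0, 4, 10, 15 and 20 at 4, 8, 12, 24 and 48 h and 17 by the F test. The counts by time are 0%, 8.33%, 20.8%, 31.2% and 41.7%, beside 0.733%, 3.36%, 4.46%, 6.05% and 8.43% of all genes called lower. NOLC1 was called at 48 h with the block (adjusted p = 0.0167). Other pathway genes called at 4 h were 2. At the time of their largest difference, the block changed no call of the other 19 members chosen by the F test rule.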

Other observations

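Besides NHP2, BOP1 and NPM1 had further probe sets of their own. BOP1 differed by -0.28 and -0.31 at 48 h on its probe sets. NPM1 had 4, of which 3 had means from 11.54 to 11.57 and differed by -0.05 to -0.02 at 48 h, and the fourth had a mean of 3.33, below the array medians.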
